A study of Mus musculus with 2 samples.

Results

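The 5 miRNA genes of imprinted loci outside the Dlk1-Dio3 region were followed in small RNA from C2C12, a myoblast line established from the thigh muscle of C3H mice after injury. They were chosen by locus from the 2202 miRNA genes counted, and all 5 were found in the annotation. They are Mir675 in H19, Mir483 in Igf2, Mir335 in Mest, and Mir296 and Mir298 beside Nespas at the Gnas locus. The samples form 1 group of 2 biological replicates with no treatment named in the labels, the culture stage is not given, and both derive from 1 cell line of 1 donor record. The replicates therefore describe how far libraries of the same cells differ, and no contrast between conditions exists. Nothing in the labels says how far apart the cultures were, so the spread may be partly technical.

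Imprinted genes are transcribed from the allele of 1 parent only, under the control of regions that carry DNA methylation from the egg or the sperm. H19 is a long non-coding RNA of the maternal allele and shares an imprinting control region with Igf2, a fetal growth factor gene of the paternal allele. Mest is a paternally expressed gene of mesodermal tissues. At the Gnas locus the antisense transcript Nespas runs from the paternal allele, and Mir296 and Mir298 are known in mouse as paternally expressed products of this antisense unit. A miRNA is cut from a hairpin in the primary transcript, and 1 or both arms guide silencing of mRNAs that match its seed. The counts are per hairpin, so they separate neither the arms nor the parental alleles.

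The mature arms of the 5 hairpins are shown because they decide which mRNAs each miRNA can pair with and which reads can be told from those of other genes. They are RefSeq sequences on GRCm38.p6, written 5′ to 3′, with the seed (bases 2 to 8) in capitals.
miR-298-5p: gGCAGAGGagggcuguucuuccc
miR-298-3p: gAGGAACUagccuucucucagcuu
miR-296-5p: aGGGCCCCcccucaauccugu
miR-296-3p: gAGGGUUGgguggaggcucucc
miR-335-5p: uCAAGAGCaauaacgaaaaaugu
miR-335-3p: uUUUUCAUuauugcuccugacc
miR-675-5p: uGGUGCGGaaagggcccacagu
miR-675-3p: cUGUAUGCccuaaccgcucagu
miR-483-5p: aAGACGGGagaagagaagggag
miR-483-3p: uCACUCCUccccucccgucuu
No arm shared its seed with a mature miRNA of another gene in the RefSeq table. A seed held by 1 gene only is common there, at 70.4% of 1679 mature miRNAs. None of the 5 hairpins shared a stretch of 20 bases with another counted miRNA gene. The 10 mature sequences, searched on both strands of all GENCODE M21 transcripts, matched their own gene and, for both arms of Mir675, its host H19. Matches outside annotated transcripts were not searched.

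The hairpins differ in how they sit in their loci on mm10. Mir675 (chromosome 7, 142577064 to 142577147, minus strand, 84 bases) overlaps an exon of H19 (142575529 to 142578143). Mir483 (chromosome 7, 142654924 to 142654996, minus strand, 73 bases) lies in an intron of Igf2 (142650766 to 142666816), 77776 bases from Mir675. Mir335 (chromosome 6, 30741299 to 30741396, plus strand, 98 bases) lies in an intron of Mest (30723547 to 30748465). Mir296 (chromosome 2, 174267047 to 174267125, minus strand, 79 bases) and Mir298 (174267504 to 174267585, minus strand, 82 bases) are 378 bases apart. In GENCODE M21 no other gene spans these neighbours, since the annotated end of Nespas (174281237 to 174295436, minus strand) lies 13651 bases upstream of Mir298. The hairpins of this pair, on which the results turn most, are given with both mature arms in capitals.
Mir298: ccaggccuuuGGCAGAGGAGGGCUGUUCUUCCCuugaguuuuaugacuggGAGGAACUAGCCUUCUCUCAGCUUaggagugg
Mir296: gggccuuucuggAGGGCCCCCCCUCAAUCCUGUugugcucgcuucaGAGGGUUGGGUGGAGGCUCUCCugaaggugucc

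The gene-strand reads summed to 27661907 in replicate 1 and to 15025315 in replicate 2. Levels are given as counts per 1000000 of these reads (CPM), with exact Poisson 95% intervals that cover counting error only, since amplified reads are not independent molecules. Of 8 skeletal muscle markers 3 passed 1 CPM in both libraries. Mir206 reached 2559 CPM in replicate 1 and, in replicate 2, 1028 CPM, Mir133b 88.0 and 20.4, and Mir486 3.94 and 1.13. Mir499 stood at 0.759 CPM in replicate 1 and 0.399 in replicate 2. Mir1a-1, Mir133a-1 and Mir133a-2 had no read and Mir1a-2 at most 3, and these 4 genes and Mir133b have near-identical copies. The 6 genes of the neural Mir9 and Mir124a families summed to at most 2 reads in a library, although their copies can lose reads to multi-mapping. Markers of other cell types summed, in replicate 1 and replicate 2, to 216 and 124 CPM for blood (3 genes), 213 and 134 for the endothelial Mir126a, 180 and 150 for islets (2 genes), 20.4 and 16.2 for epithelium (3 genes), 3.90 and 1.26 for the liver gene Mir122, and 0.398 and 0.532 for pluripotent cells (6 genes). Mir142 carried the blood sum, at 215 and 122 CPM, with Mir223 and Mir451a under 1 CPM, and Mir7-1 the islet sum, at 178 and 149 CPM, with Mir375 at 1.30 and 0.865. The part of other cell types in the results was not tested. Mir21a took 23.1% of the counted reads in replicate 1 and 53.5% in replicate 2, which lowers the CPM of every other gene in replicate 2. Levels between genes were compared as reads per hairpin, because each read covers a small RNA whole and not a piece of a long transcript. How evenly different sequences enter a library was not measured. Order and shares between genes therefore describe reads and may differ from those of the molecules in the cells. In such bulk RNA, fewer cells with a miRNA and less of it in each cell cannot be told apart.

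The Gnas pair led the imprinted-locus miRNAs in reads. Mir298, whose mouse form is known to repress the protease gene Bace1, had 38293 reads (1384 CPM, 1370 to 1398) in replicate 1 and 27198 reads (1810 CPM, 1789 to 1832) in replicate 2. Its mean was 1597 ± 301 CPM (SD, n = 2), rank 58 among all genes. Mir296, known from angiogenic endothelium and as a regulator of Nanog in mouse embryonic stem cells, had 28019 reads (1013 CPM, 1001 to 1025) in replicate 1 and 3553 reads (236 CPM, 229 to 244) in replicate 2. Its mean was 625 ± 549 CPM (SD, n = 2), rank 78, and its level in replicate 1 lay far outside the counting interval of replicate 2. Mir298 was the higher hairpin of the pair in both libraries.

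Mir335 and Mir675 formed the middle of the range. Mir335, known from mesenchymal stem cells and as a suppressor of metastasis in human breast cancer, had 6093 reads (220 CPM, 215 to 226) in replicate 1 and 3221 reads (214 CPM, 207 to 222) in replicate 2. Its mean was 217 ± 4.17 CPM (SD, n = 2), rank 107, and its counting intervals overlapped. This closeness holds only with Mir21a in the total, since without Mir21a the level of Mir335 was 286 CPM in replicate 1 and 461 in replicate 2. Mir675, which is released from H19 and is known to limit placental growth and to promote myoblast differentiation in mouse, had 3778 reads (137 CPM, 132 to 141) in replicate 1 and 1018 reads (67.8 CPM, 63.7 to 72.0) in replicate 2. Its mean was 102 ± 48.7 CPM (SD, n = 2), rank 135.

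Mir483 was the lowest of the 5. This miRNA, known to be produced with Igf2 and to be high in human Wilms tumours, had 638 reads (23.1 CPM, 21.3 to 24.9) in replicate 1 and 149 reads (9.92 CPM, 8.39 to 11.6) in replicate 2. Its mean was 16.5 ± 9.30 CPM (SD, n = 2), rank 193. It still lay far above the floor that a count of 0 leaves, 3 reads, or 0.108 CPM for replicate 1 and 0.200 CPM for replicate 2.

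**Figure D1:**
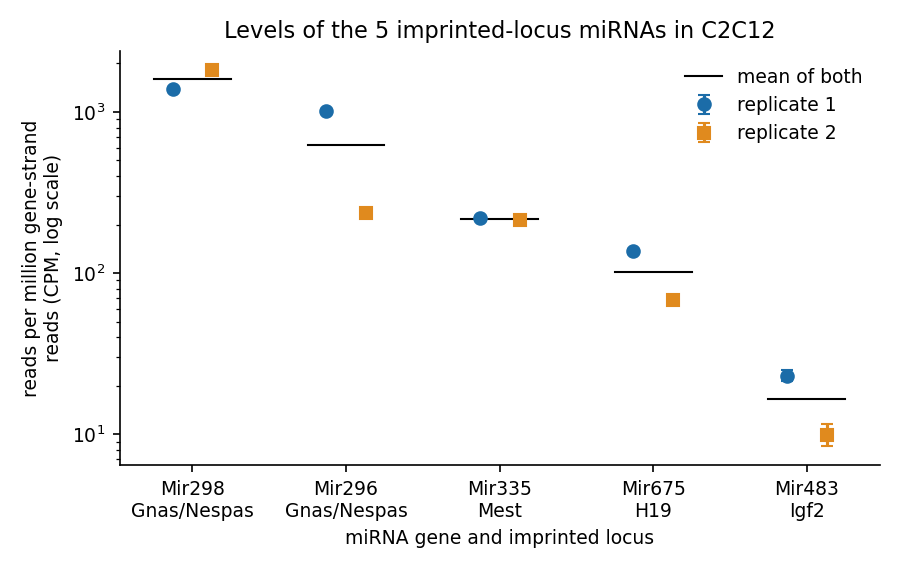
Levels of the 5 imprinted-locus miRNAs on a log scale in CPM, with replicate 1 as circles, replicate 2 as squares, bars for exact Poisson 95% intervals (often smaller than the symbol) and a line at the mean of both. Per library total, the replicates nearly coincide for Mir335, at 220 and 214 CPM, and lie farthest apart for Mir296, at 1013 and 236 CPM.

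All 5 genes passed 1 CPM in both libraries, as did 320 of the 2202 genes counted. At 10 CPM in both libraries 4 remained, and at 100 CPM 3 did. No read of any member was counted on the opposite strand in either library. The order by level was Mir298, Mir296, Mir335, Mir675 and Mir483 in each library, and also per 100 bases of hairpin. Not every step in this order exceeded its spread between the libraries. The log2 gap was 1.69 ± 1.76 from Mir298 to Mir296 and 1.17 ± 1.46 from Mir296 to Mir335 (SD, n = 2), both within the spread. It was 1.18 ± 0.69 from Mir335 to Mir675 and 2.67 ± 0.15 from Mir675 to Mir483 (SD, n = 2), both beyond 1 SD.

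**Figure D2:**
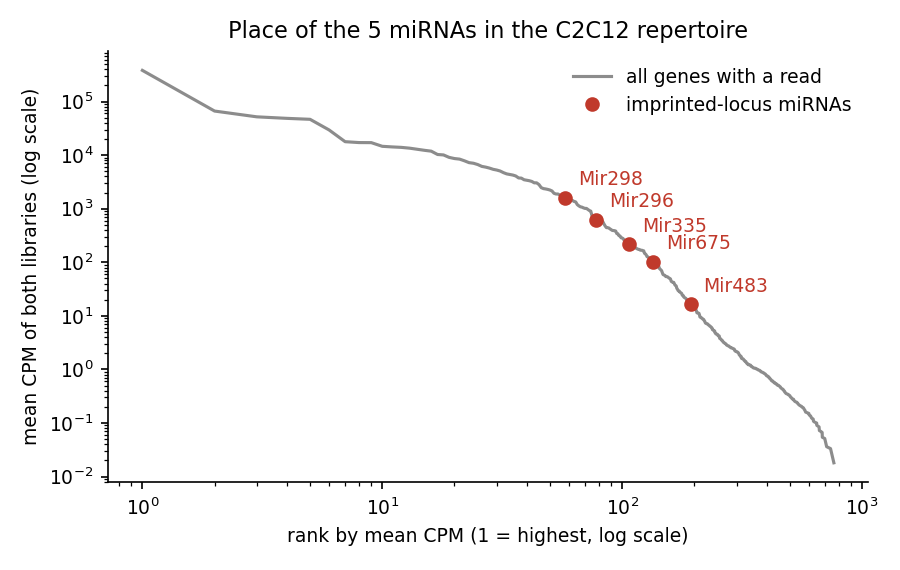
Mean CPM of both libraries against rank for every gene with a read, both axes on a log scale, with the 5 imprinted-locus miRNAs marked. They span ranks 58 (Mir298) to 193 (Mir483).

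Together the 5 genes took 76821 reads (2777 CPM, 2758 to 2797) in replicate 1 and 35139 reads (2339 CPM, 2314 to 2363) in replicate 2. The Gnas locus supplied 86.3% of them in replicate 1 (exact binomial 95% interval 86.1 to 86.6) and 87.5% in replicate 2 (87.2 to 87.9). Mest supplied 7.93% (7.74 to 8.12) in replicate 1 and 9.17% (8.87 to 9.47) in replicate 2. H19 supplied 4.92% (4.77 to 5.07) in replicate 1 and 2.90% (2.72 to 3.08) in replicate 2, and Igf2 0.831% (0.768 to 0.897) and 0.424% (0.359 to 0.498). These shares do not depend on how the libraries are scaled. The intervals cover counting error only and did not overlap between the libraries for any of the 4 loci. Differences past counting error were common, at 83.3% of the 210 genes with a mean of at least 10 CPM in the gene-by-gene test below. The shares of H19 and Igf2 were higher in replicate 1, and those of Mest and the Gnas locus higher in replicate 2. Within the Gnas sum, Mir296 was higher in replicate 1 (1013 against 236 CPM) and Mir298 in replicate 2 (1810 against 1384 CPM).

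The Dlk1-Dio3 region and most other imprinted loci looked at gave few reads beside these genes, while the Sfmbt2 families gave many. The 59 miRNA genes between Dlk1 and Dio3 on the plus strand of chromosome 12, a maternally expressed cluster, were counted 84 times in replicate 1 and 47 times in replicate 2. The 5 genes thus had 915 times the reads of that cluster in replicate 1 and 748 times in replicate 2. Unlike the members, not all hairpins of that cluster are free of shared stretches of 20 bases. Some of its reads may be lost, which would make these folds too high. Over all genes counted, 320 of 2202 passed 1 CPM in both libraries. Of 16 miRNA genes at or beside further loci reported as imprinted, 3 did so. These were Mir184 near Rasgrf1 at 2.46 and 1.53 CPM, Mir344d-3 at 2.71 and 2.93 CPM and Mir344b at 2.60 and 1.46 CPM, in replicate 1 and replicate 2 in that order. Both Mir344 genes share stretches of 20 bases with other hairpins, so reads of these families may be lost or split. Mir489 and Mir653, in the imprinted gene Calcr, had no read. In the Sfmbt2 intron families of chromosome 2, which are imprinted in placenta and consist of near-identical copies, 9 of 71 genes passed 1 CPM in both libraries, with 40116 reads (1450 CPM) in sum in replicate 1 and 10025 reads (667 CPM) in replicate 2, more than Mir296 alone in either library.

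Few other miRNA genes with reads lie close to the members. Within 1 Mb, only the Gnas pair itself had at least 10 reads around Mir296 and Mir298. Around the H19 and Igf2 hairpins, Mir7063 in Ap2a2 was at 1.92 CPM in replicate 1 and at 0.998 in replicate 2, and Mir7064 in Cars 2.39 and 0.266 CPM. Around Mir335 lie Mir29a at 14639 ± 6380 CPM and Mir29b-1 at 177 ± 62.9 CPM. The cluster of Mir182, Mir183 and Mir96 also lies there, at 1014 ± 145, 474 ± 195 and 287 ± 192 CPM (SD, n = 2 for each). All of these lie on the minus strand, opposite to Mir335.

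The libraries were next compared gene by gene after trimmed-mean (TMM) scaling, which sets aside the shift in Mir21a. Ratios are replicate 1 over replicate 2. Each gene's counts were put to an exact binomial test, two-sided, with p-values adjusted by Benjamini-Hochberg over 556 genes. The test compares these libraries and not conditions, and at a given ratio genes with more reads pass it more readily. It called 41.5% of the 556 genes, and 83.3% of the 210 with a mean of at least 10 CPM. Of the 5 members 4 passed, 2 higher and 2 lower in replicate 1, against 16.9% higher and 24.6% lower of all genes tested. The count of members is near what genes of their level gave. Their median log2 ratio was 0.11, beside -0.09 over all genes tested.

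Mir296 and Mir298, the neighbours, stood at opposite ends. Mir296 had a log2 ratio of 1.20 (counting SE 0.03), or 2.30-fold higher in replicate 1. Among the 210 genes with a mean of at least 10 CPM, 4 had a ratio farther toward replicate 1. Mir298 had a log2 ratio of -1.28 (counting SE 0.01), or 2.44-fold higher in replicate 2, and 12 of the 210 genes lay farther toward replicate 2. Both adjusted p-values were too small to be represented. Called ratios of at least 2-fold were found for 11.2% of the 556 genes. Across genes, edgeR put the common coefficient of variation of the replicates at 34.4%, which implies an SD of 0.70 for a log2 ratio of these libraries. In units of this SD, Mir296 lay at 1.71 and Mir298 at -1.83. The SD seen over the 210 genes was larger, at 0.84.

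The remaining members moved less. Mir335 stood at -0.86 on the log2 scale (counting SE 0.03, exact binomial test with adjusted p = 5.12e-152), or 1.81-fold higher in replicate 2. This call rests on the scaling, since by library totals its ratio was 0.04 on the log2 scale and missed the threshold (exact binomial test, adjusted p = 0.286). Mir483 stood at 0.32 on the log2 scale (counting SE 0.13, exact binomial test with adjusted p = 0.0368), and Mir675 at 0.11 (counting SE 0.05, exact binomial test with adjusted p = 0.0610). Mir675 missed the threshold, but passed it with DESeq2 size factors at 0.18 on the log2 scale (exact binomial test with adjusted p = 0.00165), a scaling that also called 41.5% of all genes tested. By library totals, which hold the shift in Mir21a, Mir675 was 2.02-fold, Mir483 2.32-fold and Mir296 4.28-fold higher in replicate 1, where 54.7% of all genes tested were called higher and 59.4% were called in either direction. Mir298 was 1.31-fold higher in replicate 2 even so, where 4.68% of genes were called.

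**Figure D3:**
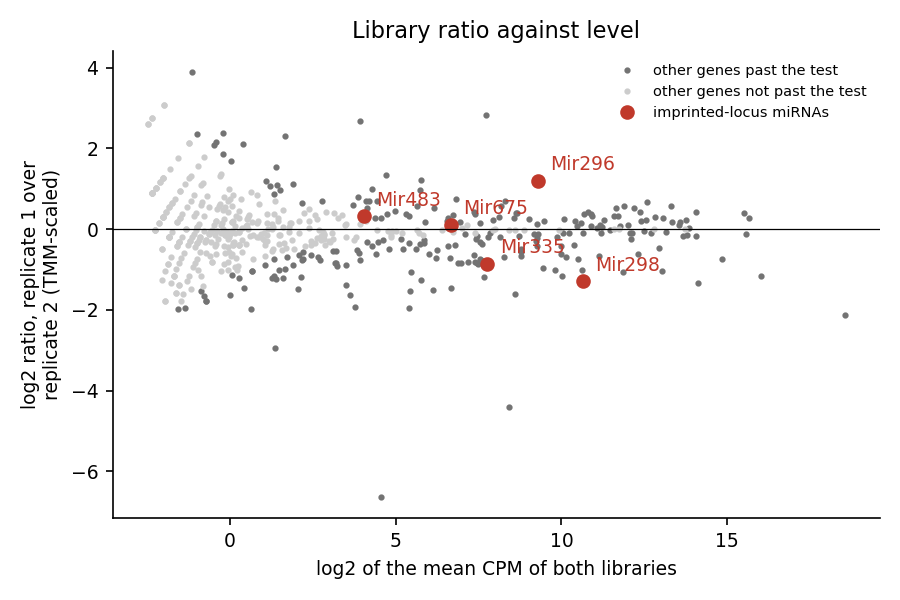
Log2 ratio of replicate 1 over replicate 2 after TMM scaling against the log2 of the mean CPM for the 556 genes tested, with the 5 imprinted-locus miRNAs named. Mir296 at 1.20 and Mir298 at -1.28 lie on opposite sides of 0, and Mir675 at 0.11 lies close to it.

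**Figure D4:**
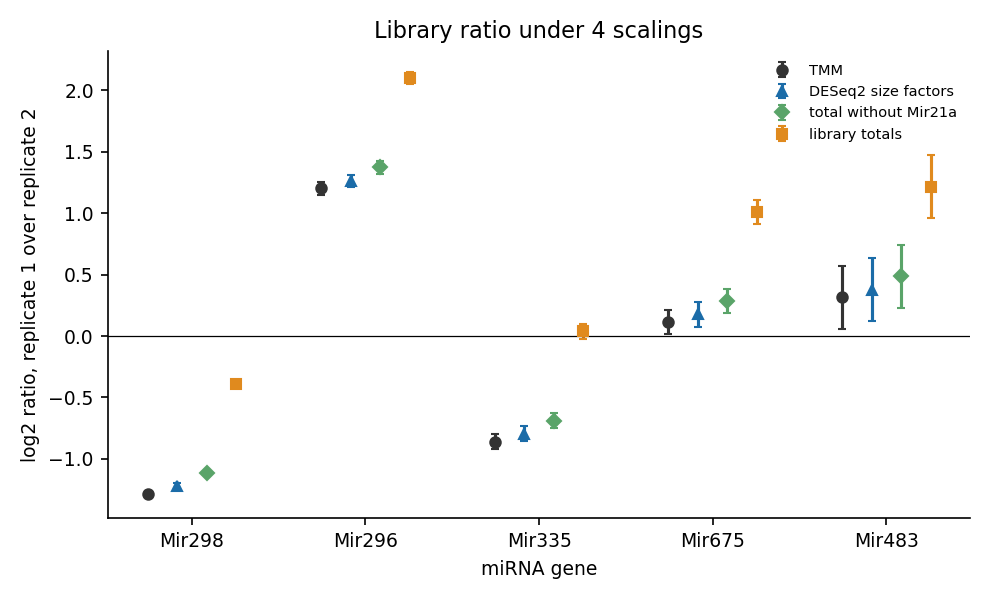
Log2 ratio of replicate 1 over replicate 2 for each member under 4 scalings, with bars for normal 95% counting intervals. Mir296 stays above 0 and Mir298 below 0 under all 4, while Mir335 is at 0.04 by library totals and below 0 under the other 3.

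Ratios between members within a library do not depend on any scaling and were compared for all 10 pairs. The quotient of the ratios, replicate 1 over replicate 2, carries an exact conditional 95% interval for counting error, not adjusted over the pairs. The split of the Gnas pair moved most. Mir296 had 0.732 reads for each Mir298 read in replicate 1 and 0.131 in replicate 2, a quotient of 5.60 (5.39 to 5.82). Put the other way, Mir298 outnumbered Mir296 by 1.37-fold in replicate 1 and by 7.65-fold in replicate 2. The H19 and Igf2 hairpins kept the closest ratio of the 10 pairs. Mir675 had 5.92 reads for each Mir483 read in replicate 1 and 6.83 in replicate 2, a quotient of 0.867 (0.711 to 1.05). This was the only pair of the 10 whose interval held 1, and for 6 pairs the quotient was at least 2-fold from 1. The 10 pairs reuse the same members and so are not separate results. Such counts were not made for pairs of other genes, so these have no background to be read against.

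Across loci, the pairs with Mir296 and those with Mir298 shifted in opposite directions. This follows from the ratios of Mir296 and Mir298, the highest and the lowest of the members, and is not a separate result. Set against Mir296, the other 3 hairpins gave quotients below 1, between 0.240 and 0.543, and set against Mir298 quotients above 1, between 1.34 and 3.04. Mir335 had 0.217 reads for each Mir296 read in replicate 1 and 0.907 in replicate 2, a quotient of 0.240 (0.227 to 0.254). Against Mir298 the same gene had 0.159 and 0.118 reads, a quotient of 1.34 (1.28 to 1.41). Mir675 had 0.620 reads for each Mir335 read in replicate 1 and 0.316 in replicate 2, a quotient of 1.96 (1.81 to 2.13). Mir483 against Mir335 gave 2.26 (1.88 to 2.74). With the common coefficient of variation, and with the hairpins of a pair taken to vary independently, the SD of a log2 quotient is 0.99. Whether neighbouring hairpins vary independently was not tested. The Mir296 and Mir298 quotient, 2.49 on the log2 scale, lay 2.50 such SDs from 0. That of Mir335 and Mir296 lay 2.07, and the other 8 at most 1.62. The SD of a log2 ratio seen over the 210 genes, 0.84, exceeds the 0.70 behind this scale and would make these distances smaller.

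Hairpins this close are often cut from 1 primary transcript, so the Gnas pair was set beside other neighbours. On the same strand within 10 kb, 93 other neighbouring pairs had at least 10 reads on each hairpin. Their median shift between the libraries was 0.64 on the log2 scale, against 2.49 for Mir296 and Mir298. Of the 93 pairs, 4 had a larger shift, and each of these 4 held a hairpin with a mean under 10 CPM. They were Mir293 with Mir294, Mir201 with Mir547, Mir471 with Mir741 and Mir669a-3 with Mir467a-1. A limit of a mean of at least 10 CPM on both hairpins was set after the data were seen. With this limit, the Gnas pair had the largest shift of 52 pairs, followed by Mir130b with Mir301b at 1.89 and Mir16-1 with Mir15a at 1.57. The level gap of Mir296 and Mir298 was less unusual, at 1.35 on the log2 scale of mean CPM against a median of 1.88, with 59 of the 93 pairs farther apart.

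**Figure D5:**
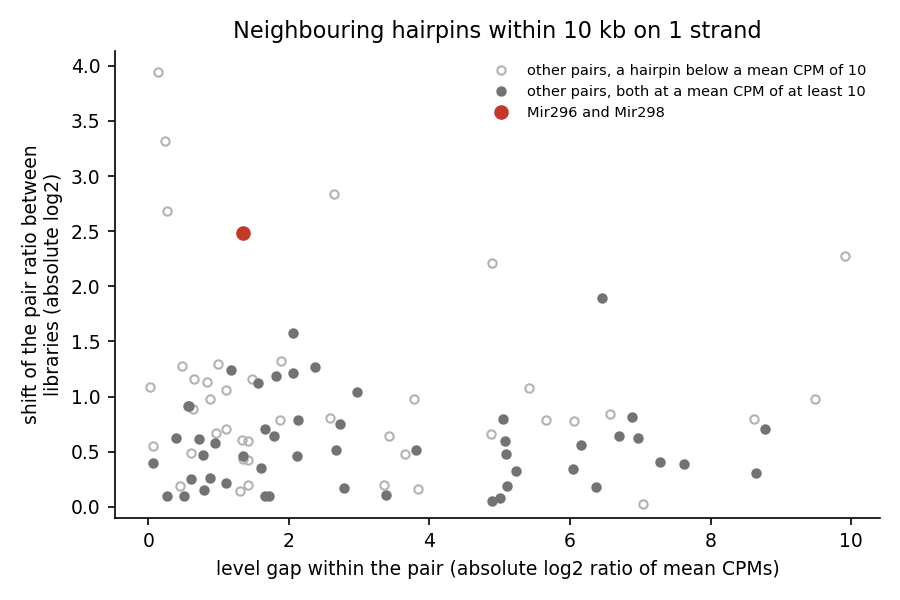
Shift of the within-pair ratio between the libraries (absolute log2) against the level gap within the pair (absolute log2 of the ratio of mean CPMs), 1 point for each of 94 neighbouring hairpin pairs within 10 kb on 1 strand. Mir296 and Mir298 stand at a shift of 2.49, with 4 pairs above them. None of these 4 had both hairpins at a mean of 10 CPM, a limit chosen after seeing the data.

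Base composition was measured beside these ratios. The hairpins of Mir296 and Mir675 had 63.3% and 63.1% GC, Mir483 58.9%, Mir298 53.7% and Mir335 42.9%. By mature arm (5p and 3p), GC was 66.7% and 68.2% for Mir296, and 65.2% and 50% for Mir298. It was 63.6% and 54.5% for Mir675, 54.5% and 61.9% for Mir483, and 30.4% and 36.4% for Mir335. Only hairpin GC was set against the ratios, although the reads are of small RNA. Across the 210 genes with a mean of at least 10 CPM, hairpin GC content and the log2 ratio had Pearson's r = 0.01 and Spearman's rho = 0.06. This is a description across genes of 2 libraries. Of 4 equal groups of tested genes by hairpin GC, the median log2 ratio was -0.15, -0.21, -0.01 and 0.00 from the least GC to the most. Mir335 lay in the lowest group, Mir298 and Mir483 in the group with -0.01, and Mir296 and Mir675 in the highest. The part of base composition, other sequence features, depth or preparation in the shift of the Gnas pair was not tested.

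The genes most like each member in level, by distance in log2(CPM + 1) over the 2 libraries, came from unrelated loci. Nearest to Mir675 were Mir582 (132 and 70.7 CPM in replicate 1 and replicate 2, distance 0.07) and Mir190a (distance 0.17). Nearest to Mir483 were Mir3066 (distance 0.13) and Mir505 (0.16). Mir335 lay nearest to Mir148b and Mir29c, at 0.27 and 0.28, and Mir298 nearest to Mir425 and Mir145a, at 0.20 and 0.43. Mir296 had no such close match. Its nearest genes were Mir374b at 715 and 324 CPM in replicate 1 and replicate 2, at a distance of 0.68, and Mir5099 at 578 and 237 CPM, at 0.81.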

How the data were processed

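Small RNA under 30 nucleotides from C2C12 was sequenced in 2 libraries of 1 group. Per the file headers of the deposited readme text, the authors counted reads on mm10 with annotation M21. For the aligner and the counter, the tool is not given in the sources used here. As deposited, the counts are raw whole numbers per hairpin gene, on either strand, the gene's strand or the opposite strand. The gene-strand column was used. Rows that name no gene held 49.7% of replicate 1 and 38.8% of replicate 2, and stayed out of totals and tests. All 2202 gene identifiers matched GENCODE M21.

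CPM, exact Poisson and Clopper-Pearson intervals, exact binomial tests (at least 10 counts over both libraries, threshold 0.05, prior count 0.5 in ratios) and Fisher conditional intervals were computed with scipy 1.17.1 and R 4.3.3. Scaling used edgeR 4.0.16 (TMM, common dispersion), and alternatively DESeq2 1.42.0 size factors. Simulated counts of 556 genes carried Poisson counting noise only. On these, the binomial test recovered 56 of 100 genes raised 2-fold and 61 of 100 lowered to 0.5-fold. It called 6 of 356 unchanged genes. Without replicate spread, this run does not give the rate of false calls between the real libraries. Libraries differed by more than counting noise and were kept as 2 replicates. Named genes were the members, the 2 genes nearest in level, neighbours within 1 Mb with at least 10 counts, seed relatives, and the lists. Members and lists were chosen with earlier results of these data known. The 4 hairpin pairs and the next largest shifts were named after their values were seen.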

Additional observations from a re-analysis of the deposited data

Results flagged for a closer look

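Counts not used here exceeded by far what a count of 0 allows, and no control library was analysed. Reads with several places in the genome came to 18382947 in replicate 1 and to 5599235 in replicate 2. Counts opposite to a miRNA gene came to 843574 in replicate 1 and to 244513 in replicate 2, none of them on the 5 imprinted-locus miRNA genes. They did not add to the either-strand total, which was smaller than the gene-strand total. Mir675, with the same reads, had a mean of 104.9 CPM by either-strand and 102.2 by gene-strand counts. The opposite-strand counts are therefore not reads beyond those on the gene strand.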

How the results depend on the processing

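No paired analysis was possible because there is only 1 group. Mir296 and Mir483 kept a positive log2 ratio and Mir298 a negative one, past the threshold, under TMM, library totals, DESeq2 size factors, a total without Mir21a, either-strand counts and filters of 1 or 50 counts. The Mir335 ratio turned from -0.86 to 0.039 by library totals. Mir675, at 0.11 with an adjusted p of 0.0610 by the exact binomial test, passed under all of these but the either-strand counts. The number of genes called was 231 by TMM, by DESeq2 size factors and with the filter of 1 count, and 330 by library totals. It was 232 without Mir21a, 224 with the filter of 50 counts and 217 by either-strand counts. The number of genes tested changes with the filter. The Mir296 to Mir298 read ratio was 0.309 as a geometric mean, and 0.131 to 0.732 with either library left out. The order of the members held at 5 of 5 places throughout. All 5 were detected with either library left out, and 4 at 10 CPM. Neighbouring pairs with a larger shift than the Gnas pair numbered 4, 3 within 2 kb, and 0 where both hairpins reached a mean of 10 CPM, a limit chosen after seeing the data. With Mir21a left out of the totals, mean levels became 2847 CPM for Mir298 (1597 with it), 913 for Mir296 (625), 374 ± 124 for Mir335 (217), 162 for Mir675 (102) and 25.7 for Mir483 (16.5). Depth limits Mir483 most, with 149 reads in replicate 2.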
